A study of Canis lupus familiaris with 34 samples.

Results

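The 9 dog osteosarcomas with the highest expression of proliferation genes (high-score tumours) were set against the 9 with the lowest (low-score tumours), out of 28 primary tumours. Of 239 tested genes of DNA replication, nucleotide supply, the cell cycle, mitosis, DNA repair and chromatin copying, 139 were higher in the high-score tumours and 1 was lower. Over all genes tested, 3.76% were higher and 3.31% were lower. Of 16 endothelial markers 9 were lower and of 17 immediate early genes 6. With 1 closely similar pair of low-score tumours averaged, however, 114 of the 239 were higher, and 1 endothelial and 0 immediate early genes were lower. Calls over all 15155 genes then fell as well, from 570 to 292 higher and from 501 to 161 lower. The tumours were chosen by measured values. A proliferation score, the mean log2(FPKM + 1) of MKI67, TOP2A, CCNA2, CDK1, BUB1, AURKB, PLK1, CDC20, TPX2 and RRM2, was computed for each tumour, and the 9 at each end of the ranking formed the groups. FPKM counts sequenced fragments per kilobase of gene length, on a scale set by library size. The score genes were kept out of every test. Genes that follow them across tumours had to differ between groups cut in this way. The p-values below set each difference against the spread within the groups of these libraries. They are not independent evidence for the separation.

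The series holds 34 RNA sequencing libraries from total RNA of dog osteosarcoma, a malignant tumour of bone-forming cells. They comprise 30 libraries of primary tumours, taken here as 28 tumours after averaging 2 pairs of libraries, 1 of a metastasis, 2 of tumour-derived cell lines and 1 of cultured osteoblasts, which build bone. Each primary library is labelled as bone tumour of a Golden Retriever, although the series' design text also names Rottweilers, and no age, sex, treatment or tumour grade was used here. The high-score and low-score tumours carry this same label. Whether they differ in breed beyond it, or in age, sex, treatment or grade, was not examined. The labels do not say whether each library came from a separate animal. The p-values set group differences against the spread between these samples within groups, part of which may be technical.

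Dividing cells pass through phases that each need their own proteins. In G1, cyclin-dependent kinases inactivate the RB family and free E2F factors, which switch on the genes for DNA synthesis, and later MYBL2 and FOXM1 switch on the genes for mitosis. Cells that leave the cycle shut these genes off, so their messages are widely used as a measure of how much of a tumour is cycling. In tissue samples such as these, a lower level of a message from fewer expressing cells and from less message per cell cannot be told apart.

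Scores of the high-score tumours were 6.06 in DOS.101, 5.85 in DOS.73, 5.78 in DOS.105, 5.62 in DOS.8, 5.58 in DOS.90, 5.23 in DOS.78, 5.20 in DOS.116, 5.16 in DOS.37 and 5.15 in DOS.84. Scores of the low-score tumours were 4.35 in DOS.85, 4.22 in DOS.81, 4.19 in DOS.28, 4.11 in DOS.57, 4.05 in DOS.114, 3.58 in DOS.110, 3.29 in DOS.70, 3.21 in DOS.115 and 3.06 in DOS.76. The ranking had a clear step at the upper limit and almost none at the lower. DOS.84, just inside the high-score group at 5.148, stood next to DOS.111 at 4.884, and DOS.85, just inside the low-score group at 4.347, stood next to the averaged pair DOS.100 and DOS.32 at 4.388. The 10 tumours between the groups spanned less than the low-score group did.

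**Figure D1:**
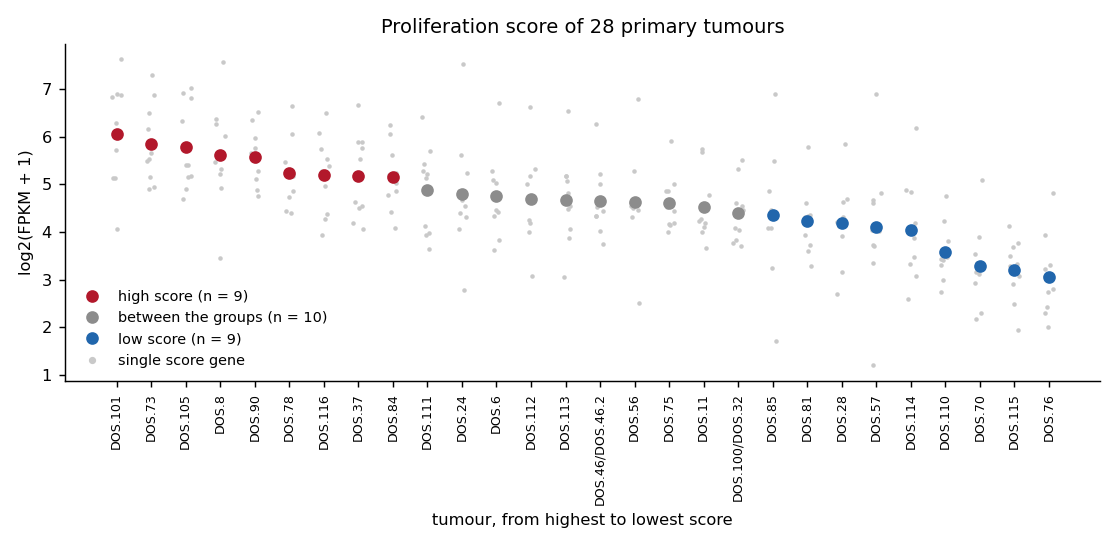
Proliferation score of each of the 28 primary tumours, ordered from highest to lowest, on a log2(FPKM + 1) axis. Large points are scores, coloured by group, and small grey points are the single score genes. High-score tumours lie between 5.15 and 6.06 and low-score tumours between 3.06 and 4.35.

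Among the score genes, which are given as a description only, MKI67, the antigen behind the Ki-67 stain of cycling cells, ranged over 9.999, 20.2 and 34.6 FPKM (lowest, median and highest) in high-score tumours and over 1.302, 4.65 and 11.1 FPKM in low-score tumours. PLK1, a kinase that drives entry into mitosis, ranged over 35.3, 43.8 and 64.0 FPKM in high-score tumours and over 5.98, 12.1 and 19.2 FPKM in low-score tumours. CDK1, the kinase that starts mitosis, ranged over 75.1, 101 and 196 FPKM in high-score tumours and over 16.4, 54.2 and 118 FPKM in low-score tumours. Only BUB1, PLK1 and TPX2 separated the groups without overlap, and CDK1 overlapped over much of its range. Outside the comparison, the metastasis DOS.6M scored 5.17, above 21 of the 28 primary tumours. The lines OSCA.78 and OSCA.8 scored 5.82 and 5.29. The osteoblast culture scored 1.29, below all 28.

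Several properties of the libraries moved with the groups. Summed FPKM ran from a lowest of 479053 through a median of 550935 to a highest of 587044 in high-score tumours, and over 615766, 686345 and 837067 in low-score tumours, without overlap. The 10 most abundant rows took 7.14% to 13.98% of the sum in high-score tumours and 13.8% to 37.5% in low-score tumours. The upper quartile of the values overlapped almost fully, at 19.6 to 23.5 FPKM in high-score and 20.2 to 23.1 FPKM in low-score tumours, as did the number of genes above 0. The part of these differences in the results was not tested beyond the rescaling given below, and depth in reads is unknown. DOS.110 and DOS.115, both low-score tumours, stood closer together than tumours usually did, with a Pearson correlation of 0.671 between their deviations from the tumour mean over genes, against 0.468 for the next pair of tumours. Results are therefore also given with this pair averaged as 1 tumour and with both left out.

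Of 15155 genes tested with limma, 570 were higher in high-score tumours at a Benjamini-Hochberg adjusted p below 0.05, which is 3.76% of genes. Another 501, or 3.31%, were lower. A change of at least 1 on the log2 scale was reached by 262 of the higher and 305 of the lower genes, and the median log2 fold change over all genes tested was -0.03. In 64 genes, or 0.422%, every high-score tumour exceeded every low-score tumour, and in 26, or 0.172%, every high-score tumour lay below every low-score tumour. An exact rank-sum test per gene called 491 higher and 391 lower.

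The number of calls rested on a few tumours and on the scaling. With DOS.110 and DOS.115 averaged, which brought the averaged pair DOS.100 and DOS.32 into the low-score group, 292 genes were higher and 161 lower. With both left out the counts were 271 and 193. Leaving out DOS.105 alone gave 400 higher and 320 lower genes, and leaving out DOS.110 alone gave 412 and 332. When every library was scaled to the same sum, the median of all genes moved to 0.26, and 2562 genes were higher against 247 lower. The share of higher genes among the calls was then 91.2%, against 53.2% as deposited. All 570 higher genes and 240 of the 501 lower ones were called again in the same direction. Summed FPKM was lower in every high-score than in every low-score tumour, so this scaling moved fold changes upwards. That the higher calls were kept was thus nearly fixed in advance and is no support for them. Higher and lower calls are both given relative to the deposited scaling.

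**Figure D2:**
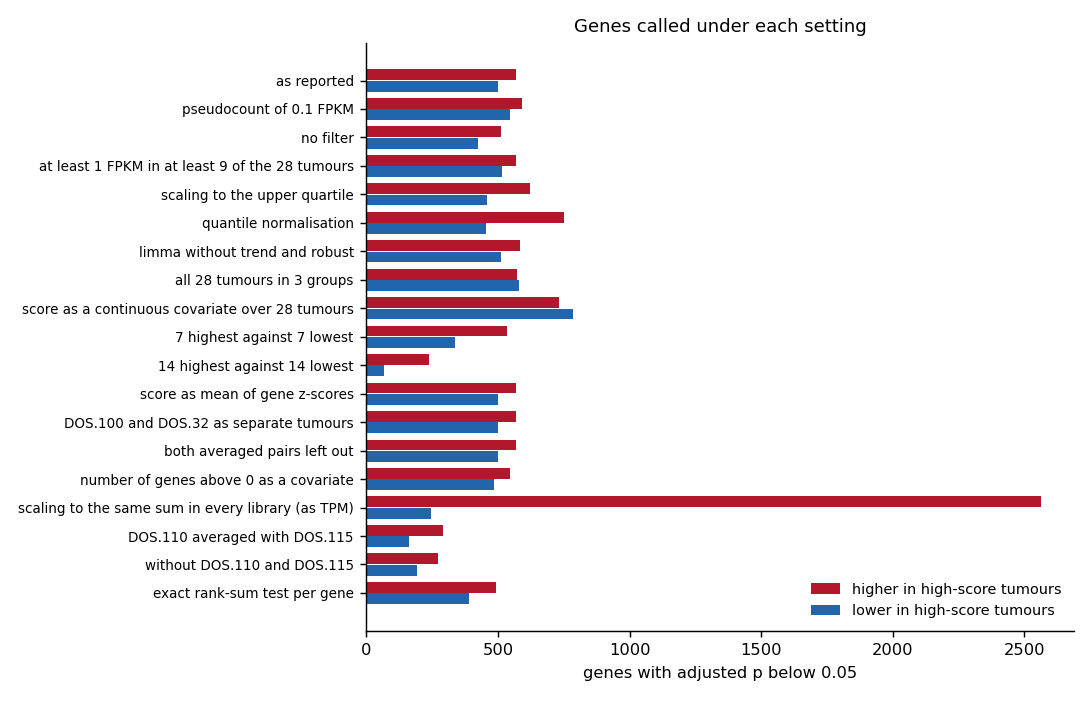
Genes called higher (red) and lower (blue) in high-score against low-score tumours under each setting, as bars from 0, at an adjusted p below 0.05. The as-reported counts are 570 and 501. Scaling every library to the same sum gives 2562 and 247, and averaging DOS.110 with DOS.115 gives 292 and 161.

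Genes of 10 cell cycle lists made up 139 of the 570 higher genes, and 202 of 2562 under the scaling to equal sums. The other higher genes lie outside these lists. Over these lists of replication, nucleotide, cell cycle, mitosis, repair and chromatin genes, 239 were tested, 139 were higher and 1 was lower. Over all genes 3.76% were higher and 3.31% lower. The median log2 fold change of the 239 was 0.92, against -0.03 over all genes. Of the 64 genes that separated the groups without overlap from above, 56 carry a symbol and 30 of those belong to these lists, which hold 239 of the 11836 tested genes with a symbol. Over all genes tested the share separating from above was 0.422%. None of the 22 named genes that separated them from below does. With DOS.110 and DOS.115 averaged 114 of the 239 were called higher, and without both 92. Over all 15155 genes these settings called 292 and 271 higher, and 161 and 193 lower. Setting 14 tumours against 14 called 237 of all genes higher and 68 lower. List counts given below under these settings stand against these totals. The score genes belong to the same programmes, so these counts describe how far each step took part in the cut and are no independent support for it.

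**Figure D3:**
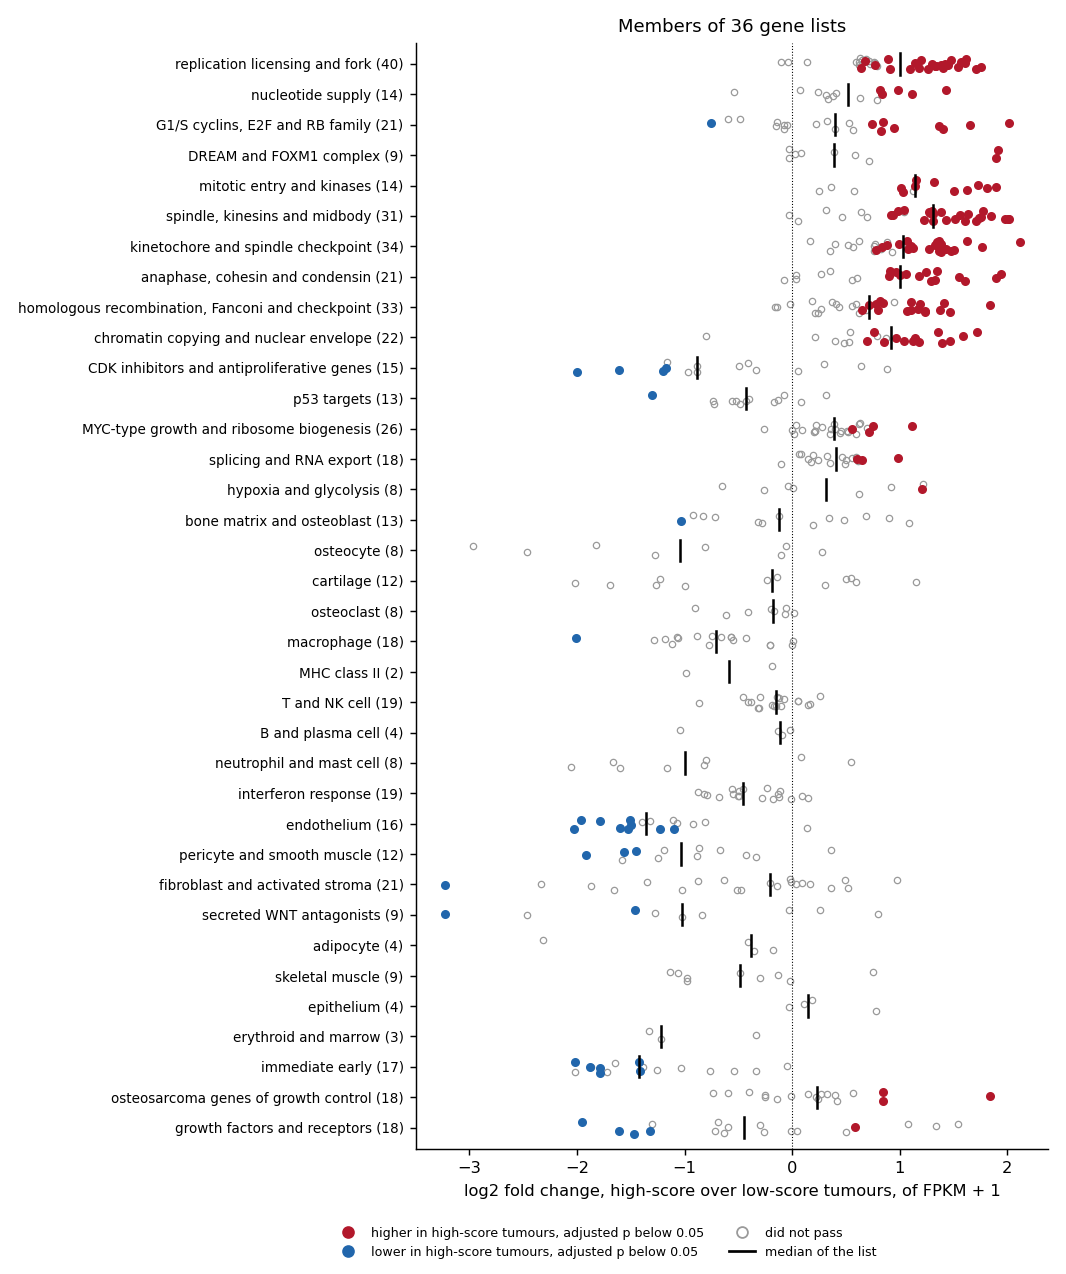
Log2 fold change of FPKM + 1, high-score over low-score tumours, for the tested members of each of 36 gene lists, with the number tested in brackets. Filled red and blue points passed an adjusted p of 0.05, open points did not, and black bars are list medians. Medians lie near or above 1 in the replication and mitosis lists and at -1.36 and -1.42 in the endothelium and immediate early lists.

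For replication licensing and the fork, 24 of 40 tested genes were higher, where 3.76% of all genes were, and none was lower. The median log2 fold change was 1.004. MCM5, a subunit of the replicative helicase, ranged over 34.8, 69.8 and 116 FPKM in high-score tumours and over 12.9, 17.8 and 28.2 FPKM in low-score tumours. The groups did not overlap (log2 fold change 1.72 ± 0.24 SE, limma adjusted p 0.000483). CDT1, which loads that helicase onto origins, ranged over 5.66, 13.7 and 30.1 FPKM in high-score tumours and over 1.94, 3.24 and 5.78 FPKM in low-score tumours, meeting only at the edge (1.76 ± 0.27 log2, adjusted p 0.000994). POLE, the catalytic subunit of a replicative polymerase, averaged 16.04 ± 6.502 FPKM in high-score and 4.48 ± 1.80 FPKM in low-score tumours (SD, n = 9 each), with a log2 fold change of 1.62. Nucleotide supply moved less: 5 of 14 genes were higher, with a median of 0.52. CTPS1, which makes CTP, ranged over 31.7, 41.8 and 54.0 FPKM in high-score tumours and over 9.66, 19.02 and 30.8 FPKM in low-score tumours. SHMT2, the mitochondrial serine hydroxymethyltransferase, ranged over 84.2, 107 and 161 FPKM in high-score tumours and over 27.5, 58.1 and 73.2 FPKM in low-score tumours. Neither gene overlapped between the groups. TK1, the thymidine kinase of S phase, was higher by 1.43 log2 but overlapped. The call of SHMT2 was lost when 14 tumours were set against 14. The nucleotide count was 3 with DOS.110 and DOS.115 averaged, 3 without both, 2 with 14 tumours against 14 and 10 under the scaling to equal sums, where the replication count was 37. With the score as a continuous covariate over 28 tumours the replication count was 37 as well. Over all 15155 genes, 2562 were higher under equal sums and 733 with the score as a covariate.

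Among cyclins, CDKs, E2F factors and the RB family, which act at the G1/S boundary, 8 of 21 genes were higher and 1 was lower. Over all genes 3.76% were higher and 3.31% lower. The list median was 0.40. The count of higher genes was 5 with DOS.110 and DOS.115 averaged, 5 without both and 4 with 14 tumours against 14. E2F7, a repressor of the E2F family, ranged over 8.07, 14.4 and 30.1 FPKM in high-score tumours and over 1.10, 3.504 and 4.98 FPKM in low-score tumours, without overlap (2.02 ± 0.27 log2, adjusted p 0.000362). E2F8, its close relative, was higher by 1.66 ± 0.26, and E2F1, an activator, by 1.401 ± 0.25, and both overlapped between the groups. The E cyclins CCNE1 (0.85) and CCNE2 (1.37) and their partner CDK2 (0.95) were also called higher, as were E2F2 (0.83) and the RB-related RBL1 (0.75). The calls of CCNE2, CDK2 and E2F2 were lost with the pair averaged, and those of CCNE2, E2F2 and RBL1 without it. RBL2, the RB relative found in resting cells, was lower by 0.75, a call lost when any of 12 tumours was left out alone. CDK4 (0.40), CDK6 (-0.08), RB1 (-0.14), CCND1 (-0.15) and CCND2 (-0.60), which act upstream of E2F, did not pass the test, with adjusted p-values of 0.307 to 0.915.

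MYBL2 and FOXM1, the activators of the mitotic genes, were the 2 of 9 genes of the DREAM and FOXM1 list that passed. Over all genes 3.76% were higher. MYBL2 ranged over 47.8, 71.0 and 147 FPKM in high-score tumours and over 9.47, 17.8 and 43.0 FPKM in low-score tumours. The groups did not overlap (1.90 ± 0.28 log2, adjusted p 0.00071). FOXM1 ranged over 6.23, 21.3 and 31.0 FPKM in high-score tumours and over 1.74, 4.45 and 7.95 FPKM in low-score tumours, with 1.91 ± 0.29 log2 and an adjusted p of 0.000795, and the groups overlapped. The MuvB subunits LIN37, LIN52 and LIN54, which both forms of the complex share, had log2 fold changes of -0.03, -0.03 and 0.08 and did not pass. The list median was 0.39, and 4 of its genes passed when DOS.76 was left out and 5 under the scaling to equal sums. That scaling called 2562 of all 15155 genes higher.

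Genes of each stage of mitosis were higher in high-score tumours. As-reported counts below stand against 3.76% of all genes called higher. Of the genes for mitotic entry and kinases 10 of 14 were higher (median 1.15), of those for the spindle, kinesins and midbody 24 of 31 (median 1.31), of those for the kinetochore and spindle checkpoint 21 of 34 (median 1.03), and of those for anaphase, cohesin and condensin 14 of 21 (median 1.01), and none of them was lower. Without DOS.110 and DOS.115 the anaphase, cohesin and condensin count was 7 and the kinetochore count 15, and with the pair averaged they were 12 and 19. The anaphase count was 9 with 14 tumours against 14, and the kinetochore count 33 under the scaling to equal sums. That scaling called 2562 of all 15155 genes higher. CDCA8, the borealin subunit of the chromosomal passenger complex, ranged over 26.04, 37.7 and 59.9 FPKM in high-score tumours and over 4.11, 7.45 and 16.1 FPKM in low-score tumours. It had the largest rise among members of the 10 lists (2.12 ± 0.23 log2, adjusted p 8.82e-05). KIF23, a kinesin of the midbody where daughter cells part, ranged over 18.7, 38.8 and 69.2 FPKM in high-score tumours and over 5.99, 7.99 and 15.6 FPKM in low-score tumours (1.98 ± 0.22 log2, adjusted p 8.82e-05). KIF14, another kinesin of cytokinesis, reached the same adjusted p with 1.76 ± 0.19 log2. No low-score tumour reached the high-score range in these 3 genes.

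NCAPG and NCAPH, subunits of the condensin that compacts chromosomes, showed the same separation. NCAPG ranged over 18.2, 46.1 and 64.8 FPKM in high-score tumours and over 4.63, 11.4 and 16.6 FPKM in low-score tumours, and NCAPH was higher by 1.61 ± 0.19 log2. GTSE1, a microtubule-binding protein of G2 and S phase, ranged over 10.2, 17.9 and 27.3 FPKM in high-score tumours and over 2.67, 4.84 and 7.02 FPKM in low-score tumours. KIF18B, a kinesin that trims microtubule ends, was higher by 2.01 ± 0.28 log2 and did not overlap either. Other called members overlapped between the groups. They include DLGAP5, a spindle protein (2.02), UBE2C, the ubiquitin-conjugating enzyme of the anaphase-promoting complex (1.90), CDCA3 (1.90), BUB1B, a checkpoint kinase (1.77), CCNF, a cyclin of the SCF ligase family (1.73), and MIS18A, which prepares centromeres for new CENPA (1.63). Calls of the mitotic genes named here held under all 36 alternative settings.

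**Figure D4:**
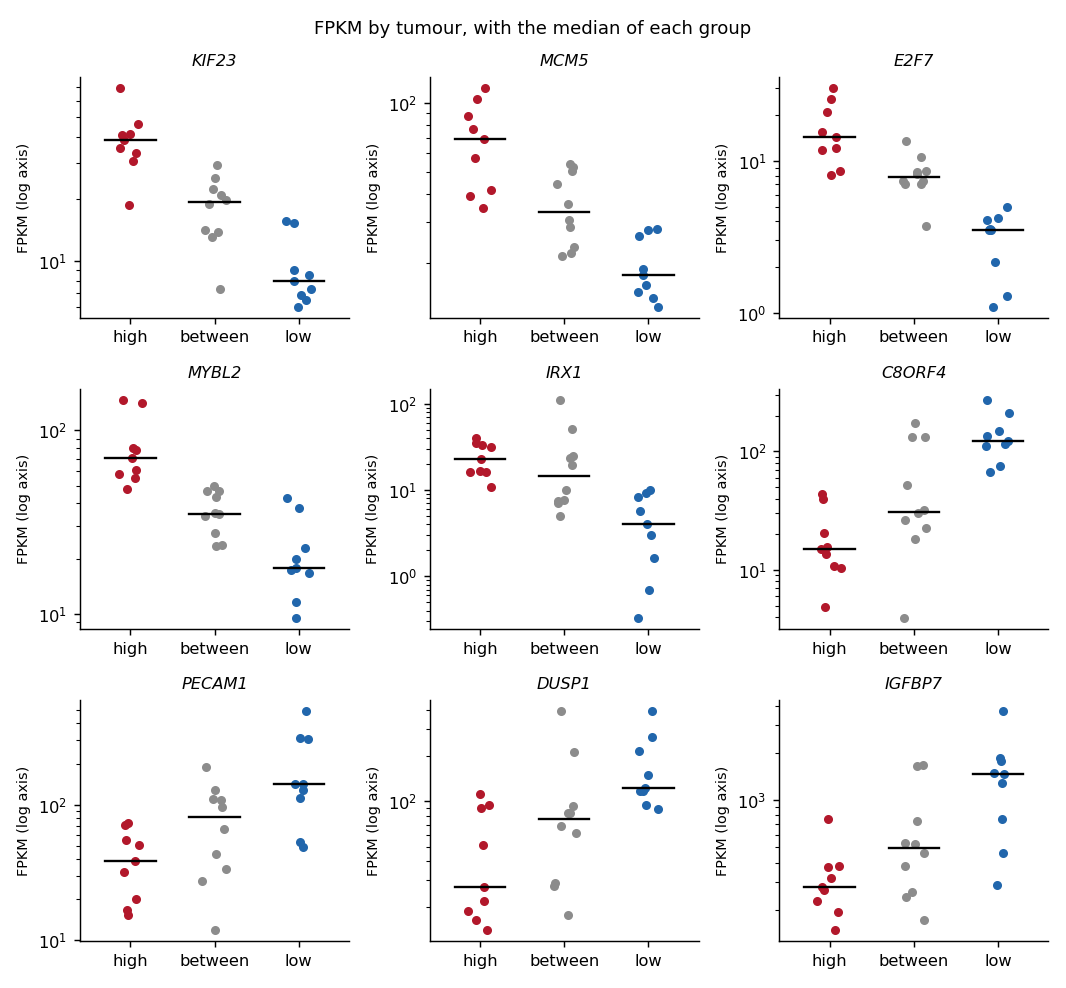
FPKM of 9 genes in each tumour on log axes, in high-score tumours (red), the tumours between the groups (grey) and low-score tumours (blue), with black bars at group medians. KIF23, MCM5, E2F7, MYBL2 and IRX1 lie higher in all high-score than in all low-score tumours, C8ORF4 lies lower in all of them, and PECAM1, DUSP1 and IGFBP7 are lower with overlap.

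Among repair genes, 17 of 33 genes of homologous recombination, the Fanconi pathway and the checkpoint were higher, where 3.76% of all genes were. The median was 0.72. The count was 12 with DOS.110 and DOS.115 averaged, 10 without both, 11 with 14 tumours against 14 and 27 under the scaling to equal sums. That scaling called 2562 of all 15155 genes higher. RECQL4, a helicase mutated in a human syndrome with a high risk of osteosarcoma, ranged over 3.75, 8.94 and 17.1 FPKM in high-score tumours and over 0.80, 1.34 and 5.09 FPKM in low-score tumours, with overlap (1.84 ± 0.29 log2, adjusted p 0.00111). BRCA1 ranged over 3.43, 6.84 and 15.7 FPKM in high-score tumours and over 1.295, 2.08 and 3.05 FPKM in low-score tumours, without overlap. UBE2T, the ubiquitin-conjugating enzyme of the Fanconi pathway, was higher by 1.41 log2, a call lost without DOS.110 and DOS.115. TONSL, which guards stalled forks, was among the largest rises of all genes at 2.02 ± 0.29 log2 and overlapped through 1 tumour. Of genes that copy chromatin and build the nuclear envelope, 14 of 22 were higher (median 0.92), against 9 with DOS.110 and DOS.115 averaged and 3 without both. Called members include UHRF1, which carries DNA methylation through replication (1.72), CHAF1B, a histone chaperone (1.59, no overlap), and HMGB3 (1.47), whose call was lost without the pair (limma adjusted p 0.0541).

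For MYC-type growth and ribosome biogenesis 4 of 26 genes were higher, where 3.76% of all genes were, 25 had a fold change above 0, and the median was 0.39. The count was 1 with DOS.110 and DOS.115 averaged, without both or with 14 tumours against 14. Leaving out DOS.101, DOS.105, DOS.116, DOS.37, DOS.114, DOS.110, DOS.70 or DOS.115 each left 2. MYBBP1A, a nucleolar protein, ranged over 46.1, 72.4 and 130 FPKM in high-score tumours and over 17.9, 33.7 and 45.5 FPKM in low-score tumours, without overlap. In the splicing and RNA export list 3 of 18 were higher and 17 had a fold change above 0 (median 0.41), RANBP1 by 0.98, SNRPA by 0.65 and ALYREF by 0.60, and the count was 0 without DOS.110 or without the pair, 1 with the pair averaged, 1 without DOS.101, DOS.73, DOS.105, DOS.116 or DOS.70 and 6 without DOS.57. Of 8 hypoxia and glycolysis genes HK2, a hexokinase, passed at 1.21, a call lost when any of 12 tumours was left out. Under the scaling to equal sums 16 of the 26 growth genes and 13 of the 18 splicing genes were called higher. That scaling called 2562 of all 15155 genes higher and moved their median to 0.26.

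Of 18 tested genes known from osteosarcoma, RECQL4, CCNE1 and BRCA2 were higher, against 3.76% of all genes, and none was lower. Under the scaling to equal sums 7 were higher, where 2562 of all 15155 genes were. CCNE1 ranged over 5.38, 7.21 and 15.5 FPKM in high-score tumours and over 2.23, 4.58 and 5.39 FPKM in low-score tumours, overlapping slightly, and reached 34.4 FPKM in a tumour between the groups. BRCA2 was higher by 0.85 log2, a call lost without DOS.110 and DOS.115. MDM2, the ubiquitin ligase of p53, had a log2 fold change of -0.73, and ATRX, a chromatin remodeller, of -0.26, and neither passed.

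Outside these lists, the largest rise of a named gene was that of IRX1, a homeobox transcription factor. It ranged over 10.8, 22.9 and 40.6 FPKM in high-score tumours and over 0.32, 4.09 and 9.95 FPKM in low-score tumours, and over 5.05, 14.8 and 112 FPKM in the tumours between the groups. The groups did not overlap (2.39 ± 0.40 log2, adjusted p 0.00143), but the highest value of all belonged to a tumour between them. With DOS.110 and DOS.115 averaged the fold change was 1.86 and the call was lost. DUSP9, a phosphatase of MAP kinases, ranged over 1.95, 4.88 and 24.5 FPKM in high-score tumours and over 0.02, 0.46 and 2.94 FPKM in low-score tumours, with overlap (2.10 ± 0.38 log2, adjusted p 0.00286). GFRA3, a co-receptor for the ligand artemin, was higher by 1.98 ± 0.40, and FAM64A, a mitotic gene also known as PIMREG, by 2.06 ± 0.33. The call of GFRA3 was lost with 14 tumours against 14. BARX1, a homeobox gene, was higher by 2.04 ± 0.58, with an adjusted p of 0.0384 that was lost when any of 12 tumours was left out.

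Brakes on the cell cycle were lower in part. Of 15 CDK inhibitors and antiproliferative genes, 4 were lower, where 3.31% of all genes were, and none was higher. The median was -0.88. GADD45A, a stress gene that blocks CDK1, ranged over 5.54, 12.6 and 25.8 FPKM in high-score tumours and over 14.1, 74.3 and 176 FPKM in low-score tumours (-2.001 ± 0.51 log2, adjusted p 0.0219). BTG2 (-1.61), GADD45B (-1.20) and TXNIP (-1.17) also passed, and all 4 overlapped. The count was 2 without DOS.101, 1 with DOS.110 and DOS.115 averaged and 0 without both or with 14 tumours against 14. Under the scaling to equal sums 2 were lower and 2 higher, against 247 lower and 2562 higher of all 15155 genes. CDKN2C and CDKN3 had values of 0.89 and 0.64 and did not pass. Of 13 p53 targets 1 was lower, the death receptor FAS (-1.30), against 3.31% of all genes, and the median was -0.42. The count was 2 without DOS.85, DOS.28 or DOS.57 and 0 with DOS.110 and DOS.115 averaged or under the scaling to equal sums, where 1 gene was higher. At an unadjusted limma p below 0.05, 5 of the 13 were lower, where 3522 of all 15155 genes differed in either direction. The mean log2(FPKM + 1) of the 13 did not overlap, at 3.13 to 3.45 in high-score and 3.52 to 3.94 in low-score tumours. It was 3.01 to 3.47 in the tumours between the groups.

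The lowest adjusted p among lower genes with a symbol belonged to C8ORF4, which encodes TCIM, a small regulator linked to WNT signalling in human cells. It ranged over 4.90, 15.04 and 43.8 FPKM in high-score tumours and over 67.2, 123 and 273 FPKM in low-score tumours. The groups did not overlap (-2.92 ± 0.35 log2, adjusted p 0.000123), while the tumours between them spread over 3.90 to 172 FPKM. SPARCL1, a matrix protein of vessel walls and stroma, ranged over 17.5, 35.5 and 49.9 FPKM in high-score tumours and over 60.0, 180 and 688 FPKM in low-score tumours, again without overlap (-2.46 ± 0.42 log2, adjusted p 0.00159). PIK3IP1, an inhibitor of PI3 kinase, ranged over 0.67, 2.91 and 6.17 FPKM in high-score tumours and over 7.25, 10.4 and 16.7 FPKM in low-score tumours, with no overlap (-1.57 ± 0.24 log2, adjusted p 0.000838). PIK3IP1 kept its call under all 36 alternative settings, while C8ORF4 and SPARCL1 lost theirs with 14 tumours against 14.

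FAM110D was lower by 2.08 ± 0.29 log2 and did not overlap. FOLR2, a folate receptor of tissue macrophages, ranged over 26.4, 33.7 and 62.8 FPKM in high-score tumours and over 62.3, 149 and 317 FPKM in low-score tumours, touching at the edge (-1.97 ± 0.28 log2, adjusted p 0.000483). PDE6H, named for a phosphodiesterase of cone photoreceptors, averaged 1.55 ± 0.75 FPKM in high-score and 13.98 ± 9.94 FPKM in low-score tumours (SD, n = 9 each). It overlapped slightly.

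The largest fitted fall of a named gene was that of APOA1, closely followed by SFRP4. APOA1, the main protein of high-density lipoprotein, ranged over 0.29, 2.92 and 13.8 FPKM in high-score tumours and over 3.35, 35.5 and 409 FPKM in low-score tumours (-3.23 ± 0.82 log2, adjusted p 0.0229). SFRP4, a secreted WNT antagonist of bone, ranged over 1.22, 22.4 and 127 FPKM in high-score tumours and over 5.76, 263 and 699 FPKM in low-score tumours (-3.23 ± 0.86 log2, adjusted p 0.0291). The groups overlapped in both genes. The call of SFRP4 was lost without DOS.73, DOS.105, DOS.110 or DOS.115, and those of both were lost with the pair averaged. SERPING1, the inhibitor of complement C1, ranged over 11.3, 43.0 and 204 FPKM in high-score tumours and over 122, 312 and 1316 FPKM in low-score tumours. The groups overlapped, and its call (-2.71 ± 0.53 log2) held with the pair averaged and without it. DNASE1L3, a DNase of macrophages and liver endothelium, fell by 2.63 on the log2 scale, S100A16 by 2.41, and the chemokine CCL14 by 2.44, a call lost with the pair averaged. Calls of SERPING1, DNASE1L3, S100A16 and CCL14 were lost with 14 tumours against 14, and that of S100A16 also with 7 against 7. The remaining falls of this size, ITGBL1 (-3.06), the collagen-binding proteoglycan FMOD (-2.73), OLFML1 (-2.48) and the chemokine CXCL14 (-2.40), all lost their calls with the pair averaged.

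Blood vessel markers were lower in high-score tumours. Of 16 endothelial markers 9 were lower, where 3.31% of all genes were, and none was higher. In 15 the fold change was below 0, and the median was -1.36. PECAM1, the adhesion molecule CD31, ranged over 15.3, 38.5 and 73.8 FPKM in high-score tumours and over 48.8, 143 and 490 FPKM in low-score tumours (-2.02 ± 0.43 log2, adjusted p 0.00794). EMCN, a sialomucin of capillaries and veins, ranged over 3.24, 8.47 and 16.5 FPKM in high-score tumours and over 9.27, 32.2 and 95.2 FPKM in low-score tumours (-1.79 ± 0.37 log2, adjusted p 0.00658). TEK, the angiopoietin receptor, was lower by 1.96 ± 0.45 log2, and TIE1, ESAM, MMRN2, SOX17, SOX18 and EGFL7 passed at values of -1.60 to -1.10. The groups overlapped in all of them. The mean log2(FPKM + 1) of the 16 markers ranged over 2.73, 3.38 and 4.33 in high-score tumours and over 3.62, 4.83 and 6.51 in low-score tumours, with DOS.78 the highest of the high-score group.

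Of 12 pericyte and smooth muscle markers 3 were lower, where 3.31% of all genes were, and the median was -1.04. The 3 were RGS5 (-1.92), KCNJ8 (-1.57) and ABCC9 (-1.45), which mark the cells that wrap capillaries. These vessel calls depended on the tumours included. With DOS.110 and DOS.115 averaged 1 of the 16 endothelial markers (EMCN) and 1 of the 12 pericyte markers (RGS5) passed. Without both the counts were 2 and 1, although the endothelial median was still -1.10. The pericyte count was 1 without DOS.101, DOS.73, DOS.85, DOS.110 or DOS.115 and 5 without DOS.28. Setting 14 tumours against 14 left none in either list.

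Immediate early genes, which cells switch on within minutes of a growth signal, also lay lower. All 17 tested had fold changes below 0, and the median was -1.42. Of the 17, 6 passed, against 3.31% of all genes called lower. DUSP1, a phosphatase that shuts down MAP kinases, ranged over 14.04, 27.1 and 112 FPKM in high-score tumours and over 89.4, 122 and 395 FPKM in low-score tumours (-2.02 ± 0.42 log2, adjusted p 0.00677). JUNB ranged over 24.8, 47.6 and 170 FPKM in high-score tumours and over 96.7, 153 and 786 FPKM in low-score tumours, and IER2 was lower by 1.79. The groups overlapped in these 3 genes. ZFP36, JUND and EGR2 also passed. FOS, at -2.01, did not, with an adjusted p of 0.0864. None of the 17 passed with DOS.110 and DOS.115 averaged or with 14 tumours against 14, 3 passed without that pair, and 11 passed without DOS.28. With the score as a continuous covariate over 28 tumours 12 were lower, and under the scaling to equal sums 4.

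**Figure D5:**
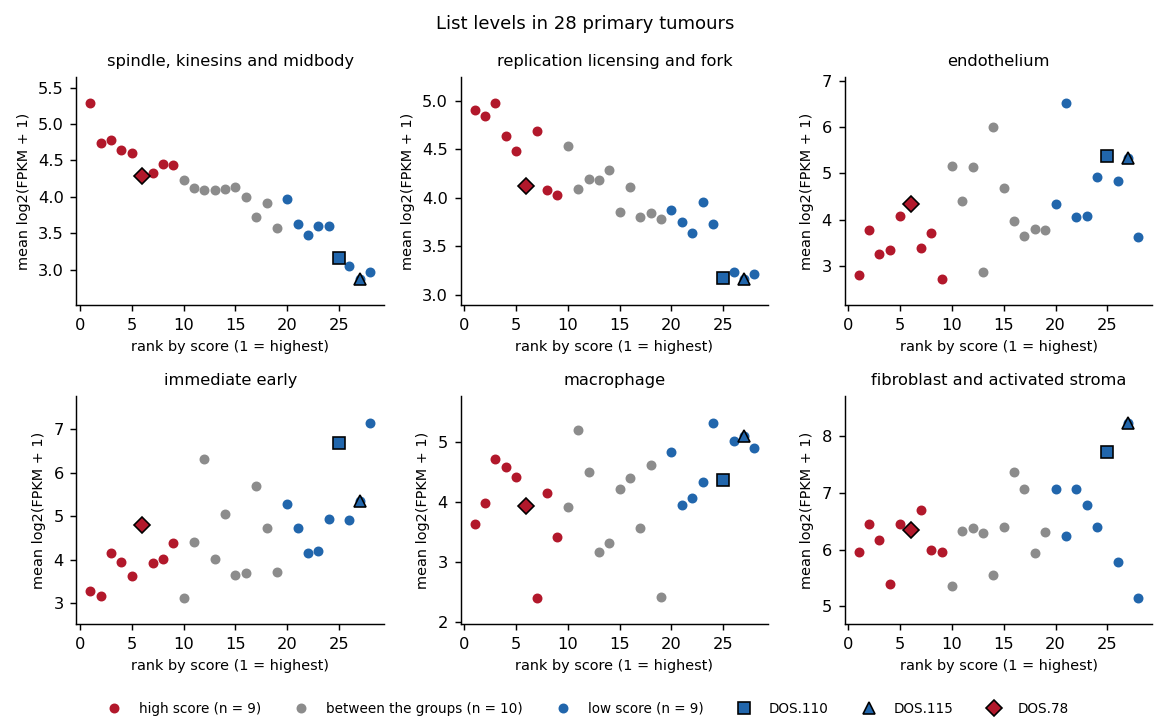
Mean log2(FPKM + 1) of the tested members of 6 gene lists in each of 28 tumours against the rank by score, with high-score tumours at the left in red and low-score tumours at the right in blue. DOS.110, DOS.115 and DOS.78 have their own symbols. Spindle and replication levels decline along the ranking, while endothelium, immediate early and macrophage levels are higher in low-score tumours with wide scatter in the tumours between.

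Macrophage markers lay lower without most of them passing. Of 18 tested, 17 had fold changes below 0 and the median was -0.70, but LYZ alone passed, where 3.31% of all genes were lower. LYZ, the lysozyme gene, ranged over 8.27, 24.6 and 57.4 FPKM in high-score tumours and over 23.9, 140 and 260 FPKM in low-score tumours, with overlap (-2.01 ± 0.46 log2, adjusted p 0.012). CSF1R and CD163, defining receptors of macrophages, had values of -0.55 and -0.20. The mean level of the 18 ranged over 2.40, 3.99 and 4.71 in high-score tumours and over 3.95, 4.83 and 5.32 in low-score tumours. The count was 2 without DOS.105, DOS.8 or DOS.81, 3 without DOS.28, 0 with DOS.110 and DOS.115 averaged and 2 without both. FOLR2, called lower above, is not in this list. The part of macrophage and vessel cells in the lower genes named above was not tested.

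Bone and stromal markers did not separate the groups as lists. The counts below stand against 3.31% of all genes called lower. Of 13 bone matrix and osteoblast genes 1 was lower, SPARC, and the median was -0.12. SPARC, osteonectin, ranged over 2194, 4317 and 7791 FPKM in high-score tumours and over 4884, 8851 and 16730 FPKM in low-score tumours, with overlap (-1.03 ± 0.29 log2, adjusted p 0.0372), and the call was lost when any of 10 tumours was left out and under the scaling to equal sums, where the list median was 0.26. IBSP and SP7, a matrix protein and a transcription factor of osteoblasts, had values of -0.31 and 1.08 and did not pass. Of 21 fibroblast and activated stroma genes only SFRP4 passed, and the median was -0.21, or 0.17 under the scaling to equal sums. DKK2 and SFRP4 were lower among 9 secreted WNT antagonists (median -1.03), with DKK2 at -1.46 ± 0.31 log2.

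Growth factor signalling genes included 4 lower and 1 higher of 18, against 3.31% lower and 3.76% higher over all genes. IGFBP7, a secreted protein that binds insulin-like growth factors, ranged over 149, 281 and 764 FPKM in high-score tumours and over 289, 1464 and 3683 FPKM in low-score tumours, with overlap (-1.95 ± 0.41 log2, adjusted p 0.00671). IGFBP6, a related binding protein, was lower by 1.61, a call lost with the pair averaged (limma adjusted p 0.188) and without it (0.057). FGF1 was lower by 1.47 and the receptor TGFBR2 by 1.32. ERBB3, a receptor of the EGF family, was higher by 0.59, a call lost when any of 12 tumours was left out. With 14 tumours against 14, TGFBR2 alone of the 4 lower genes passed.

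No gene of the lists for osteocytes, cartilage, osteoclasts, T and NK cells, B and plasma cells, neutrophils and mast cells, interferon response, MHC class II, adipocytes, skeletal muscle, epithelium, and erythroid and marrow cells passed in limma. At an unadjusted p below 0.05 there were 4 of 8 osteocyte, 5 of 8 neutrophil and mast cell, 2 of 3 erythroid and 1 each of 12 cartilage, 4 B cell, 2 MHC class II, 4 adipocyte and 4 epithelial genes, and 0 in the other lists, against 3522 of all 15155 genes. The rank-sum test called 1 erythroid gene and none in the others. DMP1, an osteocyte matrix protein, showed how wide the spread was: it ranged over 0.31, 12.9 and 92.5 FPKM in high-score tumours and over 1.47, 197 and 762 FPKM in low-score tumours, and did not pass (-2.96 ± 1.08 log2, adjusted p 0.101). Skeletal muscle markers reached mean levels of 4.23 in DOS.110 and 4.17 in DOS.28, both low-score tumours, against a highest level of 2.46 in the high-score group. MHC class II was represented by only 2 genes, CD74 and CIITA.

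The 10 tumours between the groups entered no test of the outer groups. Their mean lay between the group means in 546 of the 570 higher genes and in 484 of the 501 lower genes, against 7271 of all 15155. Called genes were picked for a gap between these means, so this contrast was partly fixed in advance and is no support for the calls. No genes of matched fold change were compared. Within these 10, however, scores ran only between 4.39 and 4.88. In limma, 0 genes followed the score among them at an adjusted p below 0.05, and 923 did so at an unadjusted p below 0.05. Of the higher genes 324 of 570, or 56.8%, had a positive slope on the score, against 51.6% of all genes, and 185 of the 239 cell cycle list genes did. Of the lower genes 147 of 501, or 29.3%, had a negative slope, against 48.2% of all genes. In 15 of 16 endothelial and 17 of 18 macrophage markers the slope among these 10 tumours was positive, opposite in sign to the difference between the outer groups.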

How the data were processed

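Expression values are FPKM per gene in a single table of 34 libraries, deposited by the authors. The header names no unit, and FPKM was inferred because Cufflinks 2.2.1 is listed beside TopHat2 2.0.13, FastQC 0.11.2 and canFam3, per the submitters' processing notes. The order of steps, parameters, gene annotation and any masking are not stated in the sources used here, nor are read counts, so library depth is unknown and no counting error could be given.

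The pairs DOS.100 with DOS.32 (r = 0.844 between deviations from the tumour mean) and DOS.46 with DOS.46.2 (r = 0.729) were averaged on the log2 scale, which leaves 30 libraries as 28 tumours. The labels do not say that DOS.100 and DOS.32 come from the same tumour, and with that pair kept apart, or both pairs left out, the 9 highest and 9 lowest were unchanged. Genes with at least 1 FPKM in at least 2 of the 34 libraries were kept (15165), and 1 FPKM was added before log2, so fold changes of low genes are understated. Of the 15155 genes left after removing the 10 score genes, 11836 carry a symbol. Rows without one (9653 in the table) entered counts only. Of 14335 symbols, 13096 were found in a RefSeq gene table of another assembly, so no coordinates are given. High-score and low-score tumours (9 each) were compared in limma 3.58.1 under R 4.3.3 (trend and robust, two-sided, Benjamini-Hochberg over all genes tested, threshold 0.05), tested on simulated data. Rank-sum tests, summaries and figures used Python 3.11.15 (matplotlib 3.10.9, pandas 2.3.3, scipy 1.17.1, numpy 2.4.6). A list level is the mean log2(FPKM + 1) of its tested members.

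Tumours, score genes and the 36 gene lists (576 of 766 symbols present in the table) were chosen with earlier results of these data known. Genes were named by rule: the 12 largest called rises and falls, the 5 smallest adjusted p-values in each direction, and for each list the 3 largest called changes or, with none called, the 2 smallest adjusted p-values. Other list members in the text were named after their values were seen. Alternatives were other pseudocounts, filters, scalings, tests, group sizes and score definitions, and each tumour left out in turn. Promoter sequences were not analysed here.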

Additional observations from a re-analysis of the deposited data

Results flagged for a closer look

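In 228 groups of 9 tumours (114 named or score genes in 2 groups), 17 held a lowest or highest value set apart from the rest by more than Dixon's 95% critical value for 9 samples. The ratio was taken on the log2(FPKM + 1) scale, while the values below are in FPKM. Chance flags about 1 in 20 groups. DOS.78, a high-score tumour, accounts for 7 of the 17. It had the highest value of the high-score group for DNASE1L3 (14.9 FPKM, next 5.21), CCL14 (29.6, next 7.96), CHAD, a cartilage matrix gene (41.6, next 3.17), the mast cell gene CPA3 (3.93, next 0.33), the muscle gene CKM (2.52, next 0.20) and IER2 (147, next 39.8), and the lowest for E2F1 (11.6, next 25.2).

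In the other high-score tumours DOS.37 was lowest for BARX1 (3.29 FPKM, next 15.4) and MIS18A (9.06, next 16.9), DOS.84 was lowest for CXCL14 (6.63, next 60.6) and CCNF (7.41, next 18.3), and DOS.8 was highest for HBM, a globin gene (0.10, next 0.04). In low-score tumours DOS.76 was lowest for FAM64A (1.32 FPKM, next 4.39) and HMGB3 (0.71, next 3.49), and DOS.70 for CCNE1 (2.23, next 3.72). DOS.81 was highest for TONSL (12.5, next 4.06), and DOS.85 for BRCA2 (5.03, next 2.93).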

How the results depend on the processing

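The as-reported counts are 570 higher and 501 lower genes. They moved by more than 1.5 times when 14 tumours were set against 14 (237 and 68), when libraries were scaled to equal sums (2562 and 247), when DOS.110 and DOS.115 were averaged (292 and 161) and when both were left out (271 and 193). The last 3 of these settings were chosen after seeing the data. With the score as a continuous covariate over 28 tumours 784 genes were lower. Leaving out each tumour in turn gave 400 to 644 higher and 320 to 636 lower genes. The other settings stayed within 1.5 times in both counts: pseudocount 0.1, no filter, a stricter filter, upper quartile or quantile scaling, limma without trend and robust options, 3 groups, 7 against 7, z-scores, DOS.100 and DOS.32 apart, both pairs left out, the number of genes above 0 as a covariate and the rank-sum test. The z-score and pair settings gave the same groups and so the same counts. Of 80 named called genes, 41 lost the call with 14 against 14, 28 with the pair averaged, 25 without it, 16 by the rank-sum test and 1 to 13 with a tumour left out. The sign turned for CIITA, whose log2 fold change of -0.19 became 0.063 under equal sums, 0.019 with the pair averaged and 0.033 without it, and for MZB1, whose -0.13 became 0.018 over 28 tumours and ranged over -0.28 to 0.0046 with a tumour left out, highest without DOS.57. Neither gene was called. The causes were not tested. No paired analysis was possible because the labels give no replicate numbers shared between the groups.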

Other observations

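Among the 64 genes in which every high-score tumour exceeded every low-score tumour, several belong to none of the lists. PRMT5, an arginine methyltransferase, was higher by 1.15 on the log2 scale, KCNH3, a potassium channel, by 1.45, DIAPH3, a formin that nucleates actin, by 1.64, and CDCA4 by 1.21 (limma adjusted p 0.000795 to 0.0021). From below, LMO2, a transcriptional co-factor of blood and vessel cells, had a log2 fold change of -1.62, GPIHBP1, which anchors lipoprotein lipase to capillaries, of -1.55, the tetraspanin CD151 of -1.25 and SMAD1, a mediator of BMP signals, of -0.93. These genes were chosen after their values were seen.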
